A study of Rattus norvegicus with 12 samples.

Results

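The insulin-like growth factor (IGF) family was followed in the dorsal striatum of 12 rats through its 10 genes on the array: the ligands Igf1 and Igf2, the receptors Igf1r and Igf2r, and the binding proteins Igfbp1 to Igfbp6. Members were taken by name from the non-control probes of the scanner files, which gave 16 of 41012 probes and 10 of 35608 genes, and all 10 were among the 20398 genes tested. Each probe of each gene was read on all 12 arrays, 1 array per rat. The family was picked with results of these data known, namely that the study lists Igf2 among genes altered by stimulation and Igfbp5 among genes altered by L-DOPA, so these differences are given as a description, without a test. The study also measured Igf2 by RT-qPCR in separate rats and reports it higher with stimulation. It reports no difference in Igf2 between lesioned rats without stimulation and unlesioned rats carrying an electrode. Those RT-qPCR values were not used here.

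IGFs are secreted peptides related to insulin that act on survival and growth of neurons and glia. Igf1r is the tyrosine kinase receptor through which both ligands signal, while Igf2r, also the mannose 6-phosphate receptor, binds Igf2 and carries it to lysosomes. Most extracellular IGF is held by binding proteins, which prolong its presence and limit or direct its access to the receptor. In the adult brain, Igf2 is known mainly from the choroid plexus, the meninges and vessels, and Igfbp2 from the choroid plexus, the meninges and astrocytes.

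All rats, males whose strain and age are not given in the sources used here, had received 9 µg of 6-OHDA in the left substantia nigra, a toxin that destroys dopamine neurons, and were killed 33 days later. No unlesioned animal was on the arrays analysed here, and rats with an incomplete lesion or a misplaced electrode had been left out by the authors. The 3 rats of the 6-OHDA group had no further treatment. In the HFS group (n = 3), the subthalamic nucleus was stimulated at high frequency (130 Hz, pulses of 80 µs, 60 µA) over the last 5 days. The DOPA group (n = 3) was given 25 mg/kg L-DOPA with 12.5 mg/kg benserazide, 2 injections a day for 19 days, and was killed 12 h after the last one. The DOPA/HFS group (n = 3) had both treatments, the stimulation falling on the last 5 days of L-DOPA. Rats of the HFS and DOPA/HFS groups were anaesthetized again to implant the electrode. The study describes no implantation in the 6-OHDA and DOPA groups of the arrays, so implantation and stimulation cannot be told apart.

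Values are log2 signals after quantile normalization, on which a difference of 1 is a doubling. Levels of different probes are not comparable, so each gene was compared only with itself across groups. On 11 arrays the scanner software marked 2 to 25 spots as outliers, and on DOPA/HFS replicate 3 it marked 4175, which were left out. The 4 groups were spread over 3 slides, 1 array of every group on a slide, always at the same position, so that position and treatment cannot be told apart. P-values weigh a difference between groups against the spread between rats of a group. With 1 array per rat, this spread includes differences between arrays. Striatal projection neuron markers were well above background in all groups, with list means between 13.59 and 14.02. The choroid plexus list stood apart: the mean of its 6 genes with a value on every array was 4.87, 5.25 and 5.29 in the 6-OHDA group against 10.86, 7.40 and 10.29 in the HFS group, and 9.03 on DOPA replicate 3. The other DOPA and DOPA/HFS arrays lay between 4.46 and 6.27.

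Igfbp2 and Igfbp5, which gave the widest spread of the family and its largest difference under L-DOPA, are neighbours on chromosome 9 in the RefSeq gene table of the rat assembly GRCr8, with 0 genes listed between them. They are read from opposite strands, and the 250 bases before the annotated start of each are shown because the signals of this pair followed different courses. Capitals mark GGGCGG or its reverse complement CCGCCC (the GC box) and CACGTG (an E box, its own reverse complement). TATAAA was searched on the strand of the gene and was in neither window.

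Igfbp2 (chr9:81864561-81864810, plus strand, GRCr8): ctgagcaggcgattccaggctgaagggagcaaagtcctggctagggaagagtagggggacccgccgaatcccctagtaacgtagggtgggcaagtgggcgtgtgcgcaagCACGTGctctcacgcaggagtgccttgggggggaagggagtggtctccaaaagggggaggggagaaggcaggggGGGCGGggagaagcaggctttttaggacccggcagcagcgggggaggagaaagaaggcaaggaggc
Igfbp5 (chr9:81914188-81914437, minus strand, GRCr8): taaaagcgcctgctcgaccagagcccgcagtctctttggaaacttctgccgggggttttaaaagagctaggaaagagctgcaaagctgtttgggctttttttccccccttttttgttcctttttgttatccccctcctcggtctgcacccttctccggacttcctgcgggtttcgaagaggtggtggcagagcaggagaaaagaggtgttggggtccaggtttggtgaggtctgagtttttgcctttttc

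The Igfbp2 window had 64% G and C with 1 GC box and 1 E box, and the Igfbp5 window had 51.6% with neither. Among 33465 RefSeq windows of the same length, the median was 51.2% G and C, 30.5% held a GC box, 5.59% an E box and 8.06% TATAAA. All 10 members matched in the promoter table, with 11 windows, of which 4 held a GC box (Igf2, Igf1r, Igf2r, Igfbp2), 3 an E box (Igf1r, Igf2r, Igfbp2) and 1 TATAAA (Igfbp4). The windows of Igf1 and Igf2 lie inside the annotated spans of these genes, and that of Igf1r lies partly inside its span. A match describes these letters only.

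**Figure D1:**
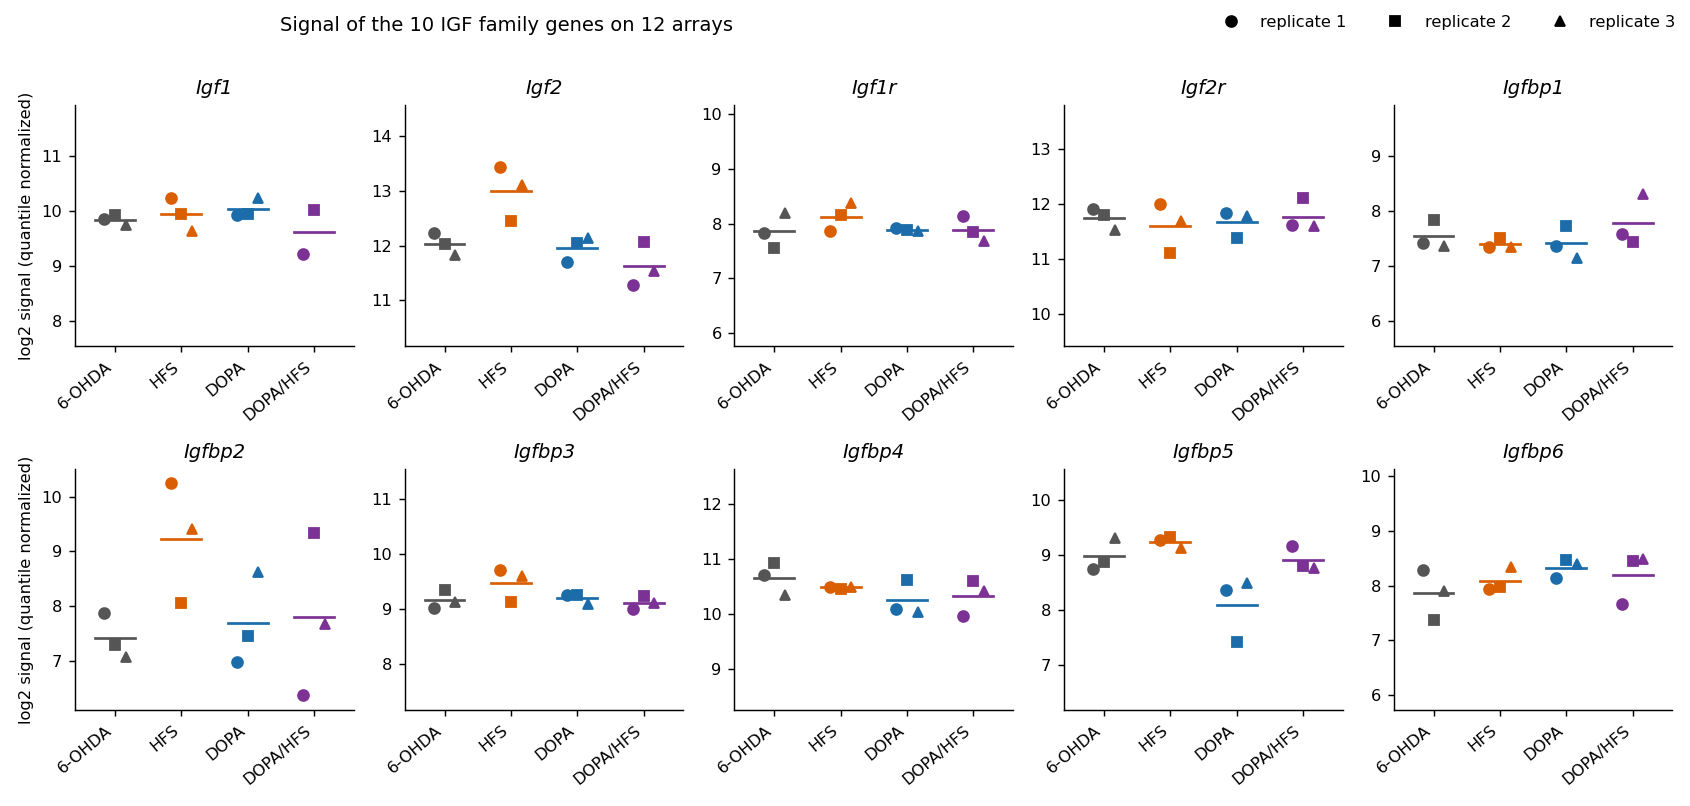
Log2 signal of each of the 10 genes (1 panel per gene, vertical axes of equal span) in the 4 groups, with 1 symbol per array, its shape giving the replicate number, and a line at the group mean. All 3 HFS arrays lie above all 6-OHDA arrays for Igf2 and Igfbp2, and all 3 DOPA arrays lie below all 6-OHDA arrays for Igfbp5.

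The ligand Igf2 was highest in the stimulated rats. Its log2 signal was 12.23, 12.03 and 11.83 in the 6-OHDA group and 13.44, 12.45 and 13.10 in the HFS group. It was 11.70, 12.04 and 12.13 in the DOPA group and 11.28, 12.06 and 11.53 in the DOPA/HFS group. Every HFS array was above every other array, and the other 3 groups overlapped. The order of the means was HFS (12.99 ± 0.50, SD, n = 3), 6-OHDA (12.03 ± 0.20), DOPA (11.96 ± 0.23) and DOPA/HFS (11.62 ± 0.40). The HFS mean stood 0.96 above 6-OHDA (SE 0.27, 1.95-fold, 95% confidence interval 0.37 to 1.56), against an SD of 0.35 between arrays of a group, and the difference was larger in replicates 1 and 3 than in replicate 2 when arrays of the same slide were set side by side (1.21, 1.27 and 0.41). In rats given L-DOPA the order was different. DOPA differed from 6-OHDA by -0.07 (SE 0.27) and DOPA/HFS by -0.41 (SE 0.27). The difference between stimulated and unstimulated rats was smaller with L-DOPA than without by 1.30 (interaction -1.30, SE 0.38, 95% interval -2.14 to -0.46). These contrasts share the arrays on which Igf2 was picked, and are given without a p. The intervals for Igf2 do not allow for that choice and are not read as a test. The share of spots well above background also stood apart, at 60.3 to 63.2% on HFS arrays and 60 to 62.8% on DOPA/HFS arrays against 53.8 to 58.9% in 6-OHDA and 50.5 to 58% in DOPA, and its part in the differences was not tested. In bulk tissue, fewer cells of a type and less RNA per cell cannot be told apart.

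Igf1, the ligand made in the adult brain by microglia and some neurons among others, differed little between groups. Its brightest probe gave 9.86, 9.93 and 9.75 in the 6-OHDA group, 10.25, 9.95 and 9.64 in the HFS group and 9.94, 9.95 and 10.25 in the DOPA group. In the DOPA/HFS group it gave 9.22 and 10.03, the spot of replicate 3 being an outlier that the fit left out. The DOPA arrays lay just above the 6-OHDA arrays, by 0.20 between means (SE 0.23, limma, unadjusted p = 0.396, adjusted p = 1), and all neighbours in the order of means (DOPA, HFS, 6-OHDA, DOPA/HFS) overlapped. A dimmer probe of Igf1 that also passed the filter ranged from 6.46 to 7.54 and placed the DOPA arrays 0.03 above 6-OHDA (SE 0.28), within its spread. The microglia list was 9.80 to 10.56 in the 6-OHDA group and 10.35 to 10.66 in the DOPA group.

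**Figure D2:**
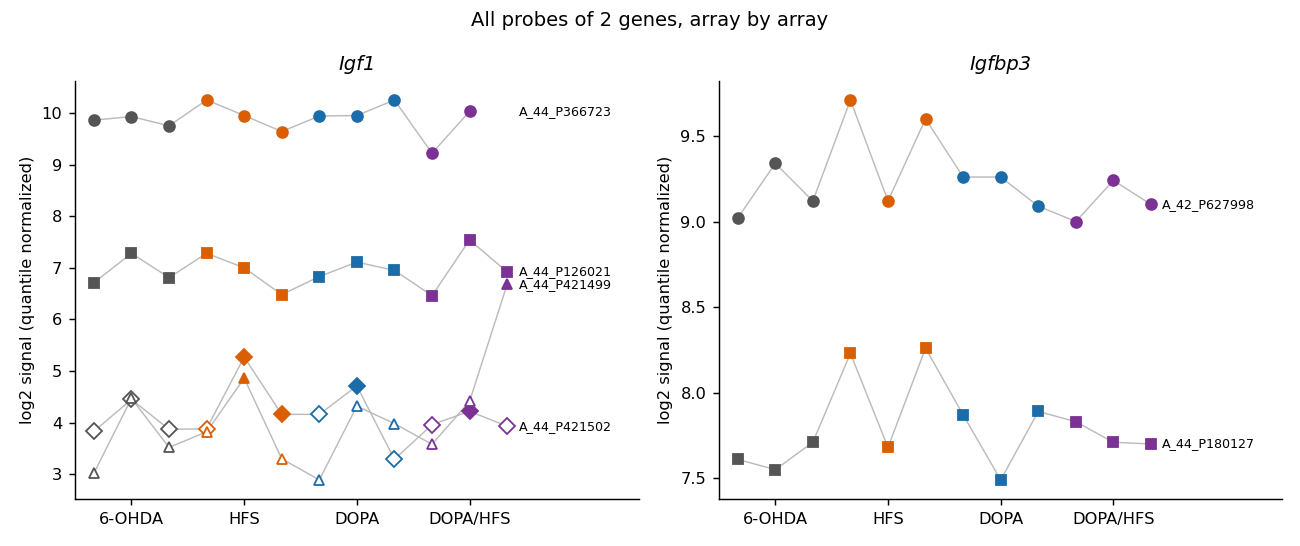
Log2 signal of every probe of Igf1 and Igfbp3 on the 12 arrays (horizontal axis, replicates 1 to 3 from left to right in each group), with filled symbols where a probe was well above background and grey lines that only link the values of a probe. Both Igfbp3 probes have their highest values on HFS replicates 1 and 3, and 2 of the 4 Igf1 probes lie near background on most arrays.

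The other 2 Igf1 probes were well above background on 4 and 2 of the 12 arrays and gave no usable level. On DOPA/HFS replicate 3, where the brightest probe was lost, 1 of them stood at 6.68 against 2.89 to 4.86 elsewhere. A second probe of Igfbp4 and a second probe of Igfbp5 were not well above background on any array. The remaining 12 member probes passed the filter, and none was saturated.

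No difference in the receptors passed the test, and their groups overlapped. Igf1r was 7.83, 7.55 and 8.19 in the 6-OHDA group, 7.86, 8.15 and 8.37 in the HFS group, 7.92, 7.88 and 7.87 in the DOPA group and 8.13, 7.85 and 7.69 in the DOPA/HFS group, all groups overlapping. The HFS difference was 0.27 (SE 0.19, limma, unadjusted p = 0.194, adjusted p = 0.998) and the others were 0.03 each (SE 0.19). The probe of Igf1r was printed in 10 spots, whose SD within an array had a median of 0.08 against 0.23 between arrays of a group, so spot noise was the smaller part of its error. Igf2r lay between 11.10 and 12.10 on all arrays, with differences of -0.14, -0.08 and 0.03 from 6-OHDA (SE 0.24 each), and its 4 groups overlapped.

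Among the binding proteins, Igfbp2 had the largest difference between HFS and 6-OHDA, and it had the widest spread of the family. It was 7.88, 7.29 and 7.08 in the 6-OHDA group and 10.24, 8.06 and 9.40 in the HFS group. It was 6.98, 7.46 and 8.63 in the DOPA group and 6.37, 9.34 and 7.67 in the DOPA/HFS group. All HFS arrays lay above all 6-OHDA arrays, while single DOPA and DOPA/HFS arrays reached into the HFS range, so that HFS overlapped with its neighbour in the order of means. HFS exceeded 6-OHDA by 1.82 (SE 0.73, 3.53-fold, 95% interval 0.21 to 3.43), which did not pass after adjustment over all genes (limma, unadjusted p = 0.0303, adjusted p = 0.998, higher on 3 of 3 slides). Its SD between arrays of a group, 1.04, was above that of 98.5% of the genes tested, whose median SD was 0.27. DOPA and DOPA/HFS differed from 6-OHDA by 0.28 and 0.38 (SE 0.73 each), less than that spread.

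Igfbp5, the most conserved of the binding proteins, was lowest in rats given L-DOPA alone. It was 8.75, 8.87 and 9.32 in the 6-OHDA group, 9.28, 9.33 and 9.13 in the HFS group, 8.36, 7.42 and 8.50 in the DOPA group and 9.17, 8.81 and 8.76 in the DOPA/HFS group. All these values come from 1 probe, printed in 1 spot, whose annotation matched no RefSeq transcript. The other probe, annotated to a RefSeq transcript of Igfbp5, stayed at 2.73 to 2.99, not well above background on any array. Each DOPA array was below every array of the other groups, and the other groups overlapped. The DOPA mean was 0.89 lower than 6-OHDA on the log2 scale (log2 difference -0.89, SE 0.27, 0.54-fold, 95% interval -1.48 to -0.30), and lower on every slide (-0.39, -1.45 and -0.82). Without DOPA replicate 2, the lowest array, the difference was -0.55 (SE 0.21). DOPA/HFS lay 0.82 above DOPA, the groups not overlapping, and differed from 6-OHDA by -0.07 (SE 0.27), within the spread, while the interaction was 0.55 (SE 0.38, 95% interval -0.28 to 1.39). As an average over 6 arrays against 6, the L-DOPA effect on Igfbp5 was -0.61 (SE 0.19) and the HFS effect 0.54 (SE 0.19). Igfbp5 was picked on these arrays, so its intervals do not allow for that choice and are not read as a test.

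Igfbp3, the main carrier of IGFs in blood, followed a course like that of Igf2 on a smaller scale. It was 9.02, 9.34 and 9.12 in the 6-OHDA group and 9.71, 9.12 and 9.60 in the HFS group, and lay between 9.00 and 9.26 on all arrays of the other 2 groups. HFS replicates 1 and 3 were above all other arrays and replicate 2 was not, so the groups overlapped. The difference of 0.32 (SE 0.17) did not pass (limma, unadjusted p = 0.0916, adjusted p = 0.998). The second probe, with 10 spots whose median SD was 0.07, gave 7.61, 7.55 and 7.71 in the 6-OHDA group and 8.23, 7.68 and 8.26 in the HFS group, a difference of 0.43 (SE 0.18), with the same 2 arrays high.

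Igfbp4 and Igfbp6 had their largest differences from 6-OHDA in the DOPA group, in opposite directions, and neither passed the test. Igfbp4 was 10.70, 10.93 and 10.34 in the 6-OHDA group and 10.08, 10.61 and 10.04 in the DOPA group, and the difference was -0.41 (SE 0.22, limma, unadjusted p = 0.0854, adjusted p = 1). It was lower on all 3 slides, and the groups overlapped. Igfbp6, which binds Igf2 in preference to Igf1, was 8.29, 7.38 and 7.90 in the 6-OHDA group and 8.13, 8.46 and 8.39 in the DOPA group, a difference of 0.47 (SE 0.27, limma, unadjusted p = 0.108, adjusted p = 1). The groups overlapped through 6-OHDA replicate 1. Igfbp1, best known as a hepatic protein under control of insulin, stayed between 7.15 and 8.31 on all arrays, the highest being DOPA/HFS replicate 3, and its differences were -0.14, -0.13 and 0.24 (SE 0.24 each).

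**Figure D3:**
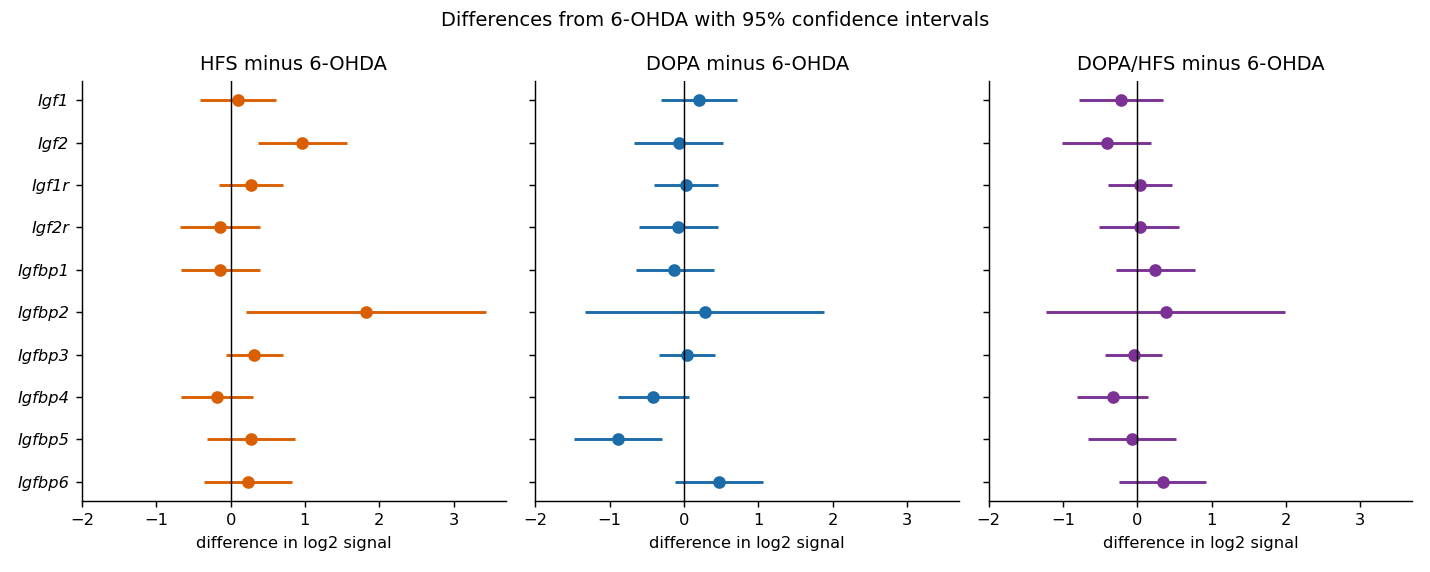
Difference in log2 signal from the 6-OHDA group (horizontal axis) of the 10 genes in each treatment, with points for the limma estimate and bars for its 95% confidence interval. The points farthest from 0 are Igfbp2 (1.82) and Igf2 (0.96) in HFS and Igfbp5 (-0.89) in DOPA, and Igfbp2 has the widest intervals. The bars of Igf2 and Igfbp5 do not allow for their choice on these arrays.

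Counted over the family, no member passed an adjusted p under 0.1 with a fold over 1.2 or under 0.8 in any of the 6 comparisons fitted with limma, the smallest adjusted p being 0.911. Such calls were as rare among all genes tested: 0% for HFS against 6-OHDA, 0.0049% (1 gene) for DOPA, 0% for DOPA/HFS, 0.0049% (1 gene) for the L-DOPA main effect, 0% for the HFS main effect and 0% for the interaction. Leaving aside Igf2 and Igfbp5, which were picked on these arrays, 1 of 8 members (Igfbp2) had an unadjusted p under 0.05 in HFS, beside 2.34% of all genes. None of the 8 did in DOPA, DOPA/HFS, the L-DOPA main effect, the HFS main effect or the interaction, where the shares of all genes were 2.58%, 2.75%, 2.74%, 4.36% and 1.98%.

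Arrays of HFS and 6-OHDA did not overlap for 2 higher members (Igf2, Igfbp2) and 0 lower ones, where 2.8% and 2.34% of all genes were so placed. Igf2 was picked on these arrays, which leaves Igfbp2. For DOPA there was 1 higher member (Igf1) and 1 lower (Igfbp5), beside 3.16% and 3.11%. Igfbp5 was also picked on these arrays, which leaves Igf1. For DOPA/HFS there were 0 in either direction, beside 1.74% and 2.44%. With 3 arrays against 3, an exact two-sided permutation test of a single gene cannot give a p below 0.1. The members' median difference was 0.25 for stimulation, -0.02 for L-DOPA and -0.01 for both, and over all genes it was 0.01, -0.01 and -0.01. The member medians include Igf2 and Igfbp5, so they are given as a description. The 3 comparisons share the 6-OHDA arrays.

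The signals of Igf2 and Igfbp2 moved with the choroid plexus list. Over the 12 arrays, which share their labelling and normalization, Pearson's r with the list mean was 0.84 for Igf2, 0.81 for Igfbp2 and 0.69 for Igfbp3, against -0.50 to 0.37 for the other members. On HFS replicates 1, 2 and 3 in turn, transthyretin (Ttr), the carrier of thyroid hormone and the most abundant choroid plexus product, was at 16.30, 11.86 and 15.28, and Sostdc1 at 12.44, 7.97 and 11.64, the same order as for Igf2 and Igfbp2. In the 6-OHDA group Ttr was at 5.80 to 6.59 and Sostdc1 at 5.50 to 5.68. Of the 6 choroid plexus genes, 5 did not overlap and were higher in HFS, beside 2.8% of all genes, Otx2 being the exception. Of these 5, the study itself lists Ttr, Sostdc1 and Aqp1 as raised by stimulation on the same arrays. On the array, 6 of the 11 listed genes, Kl among them, stayed near background (never well above it) in all 3 untreated rats. Clic6 and Kcnj13, which complete the 5, were among these dim genes and passed the filter through arrays of treated rats. The count of 5 is therefore given as a description. Folr1, outside the 6 for want of a value on DOPA/HFS replicate 3, also overlapped, with 7.85 to 10.34 in HFS and 6.22 to 8.50 in 6-OHDA. Igf2 itself was at 11.83 to 12.23 on those 6-OHDA arrays.

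The relation was looser outside the HFS group. DOPA replicate 3 had a choroid plexus mean of 9.03 and Ttr at 13.81, both above HFS replicate 2 (7.40 and 11.86), with Igf2 at 12.13 against 12.45 and Igfbp2 at 8.63 against 8.06. Without the HFS arrays, r with the list was 0.34 for Igf2, 0.52 for Igfbp2 and -0.14 for Igfbp3 over 9 arrays. When the list mean was entered as a covariate in the fit, the HFS difference became 0.29 for Igf2 (SE 0.35) and -0.12 for Igfbp2 (SE 0.91), while that of Igfbp5 in DOPA was -0.95 (SE 0.29). As the list itself did not overlap between HFS and 6-OHDA, the covariate and the group cannot be told apart there.

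Igfbp2 also moved with markers of the leptomeninges, the connective tissue covering the brain. Its r with the mean of 10 leptomeningeal genes was 0.65 over 12 arrays and 0.93 over the 9 arrays outside HFS. For Igf2 these values were 0.30 and 0.62, and for Igf2r 0.49 and 0.69. Outside HFS the other members ranged from -0.24 (Igf1r) to 0.59 (Igf1, over 8 arrays). DOPA/HFS replicate 2 had the highest list mean of all arrays, 10.05 against 8.76 to 9.45, with Col1a1 at 10.12 against 8.42 to 9.62, and there Igfbp2 was 9.34. DOPA/HFS replicate 1 had the lowest list mean and the lowest Igfbp2, 6.37. The list did not differ between HFS (9.16 to 9.39) and 6-OHDA (9.14 to 9.45) beyond its spread, nor did Dcn (7.42 to 8.16 and 6.98 to 7.85), and with the list as a covariate the HFS differences were 0.95 for Igf2 (SE 0.22) and 1.79 for Igfbp2 (SE 0.44). The part of either tissue in these differences was not tested.

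**Figure D4:**
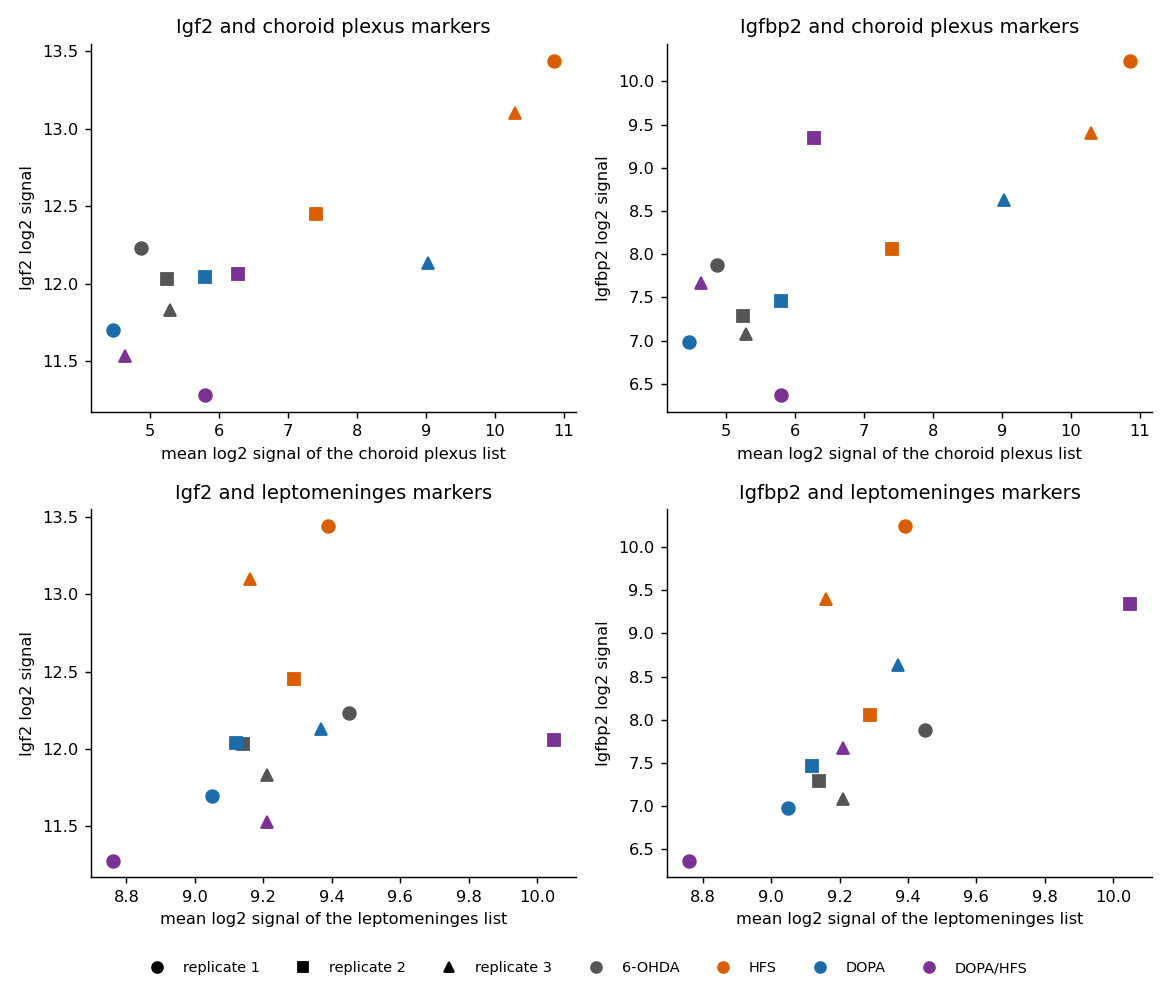
Log2 signal of Igf2 and Igfbp2 (vertical axes) against the mean log2 signal of the choroid plexus list (upper panels) and of the leptomeninges list (lower panels), with 1 symbol per array, coloured by group and shaped by replicate. HFS replicates 1 and 3 lie at the upper right for choroid plexus, and DOPA/HFS replicate 2 stands at the right for leptomeninges with a high Igfbp2 signal.

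The genes most like each member over the arrays were ranked by Pearson's r as a description. For Igf2 they were Epn3 (r = 0.912), the water channel Aqp1 (0.879), LOC683753 (0.862), the potassium channel Kcnj13 (0.859) and Rimklb (0.849). For Igfbp2 they were Fmod (0.955), Kcnj13 (0.884), Epn3 (0.884), Klc3 (0.873) and LOC684538 (0.872). Aqp1 and Kcnj13 belong to the choroid plexus list and Fmod, which codes for fibromodulin, to the leptomeninges list. For Igfbp5 they were Dcx (0.955), which codes for doublecortin of immature neurons, then Olfml2b (0.919), Ccdc138 (0.888) and 2 unnamed transcripts. For Igf1, over 11 arrays, the first named genes were Polr2j (0.921) and Magoh (0.909). Within the family the closest pair was Igf2 with Igfbp2 (r = 0.85), then Igf2 with Igfbp3 (0.81) and Igfbp2 with Igfbp3 (0.69), and the chromosome neighbours Igfbp2 and Igfbp5 had r = 0.21.

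Other genes of the pathway showed no call. Of 58 listed genes of the insulin, receptor adaptor, PI3 kinase and Akt, growth hormone, binding protein protease and Igf2-related groups, 53 were on the array and 43 were tested. At an unadjusted p under 0.05, 2 stood higher and 0 lower in HFS, 2 higher and 2 lower in DOPA, and 0 in DOPA/HFS, beside 2.34%, 2.58% and 2.75% of all genes, and all adjusted p were at least 0.911 (limma). The genes higher in HFS include Htra1, which the study lists from these arrays. Those lower in DOPA include Irs3, which was not well above background on any DOPA array. These counts are therefore given as a description. The medians over the 43 genes were 0.11, 0.02 and 0.05, beside 0.01, -0.01 and -0.01 over all genes. The insulin receptor gene Insr, the adaptor gene Irs1 and the proteases Pappa and Pappa2 were not among those tested.

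The pathway genes with the lowest unadjusted p were few. In HFS these were Htra1, a secreted protease that cleaves IGF binding proteins (0.46, SE 0.17), which the study also lists from these arrays, Gsk3b, a kinase that Akt inhibits (0.52, SE 0.21), and Ascl2, an imprinted gene near Igf2 (-0.55, SE 0.27). Htra1 was 12.62, 12.42 and 12.84 in the 6-OHDA group and 12.99, 13.11 and 13.15 in the HFS group, without overlap. In DOPA they were Igfbpl1, a binding protein-like gene (-0.67, SE 0.17, unadjusted p = 0.00247, adjusted p = 1, limma), Gsk3b (0.50, SE 0.21) and Irs3. Irs3 was not well above background on any DOPA array and on only 1 of 3 6-OHDA arrays, so no difference is given for it. Igfbpl1 was 9.54, 10.10 and 9.81 in the 6-OHDA group and 9.13, 9.14 and 9.17 in the DOPA group, without overlap, and 9.61 to 9.85 in the DOPA/HFS group. In DOPA/HFS they included Ins1 (-0.24, SE 0.12) and Ascl2 (-0.52, SE 0.27).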

How the data were processed

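Gene expression was measured in dorsal striatum of 12 lesioned rats, around 10 mg of pooled punches per rat, with 1 single-colour Agilent rat array each. The deposited scanner files hold spot intensity values, which the authors extracted with Feature Extraction 9.1 (per the labels), with local background subtracted, spatial trends removed and very low values replaced by surrogates, which blurs differences near background, and with no normalization between arrays. The deposited series table holds log2 values that the authors had quantile normalized, and was used as an alternative.

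Of 45018 spots per array, 1639 controls were dropped, as were outlier spots. Intensities were taken to log2, quantile normalized and averaged over the spots of a probe. A probe was kept if well above background on a share of 0.4 or more of the arrays, and the brightest probe stood for a gene. All 12 arrays were fitted together with limma 3.58.1 in R 4.3.3 (with jsonlite 2.0.0), as each treatment against 6-OHDA, both main effects and the interaction. A call needed a Benjamini-Hochberg adjusted p under 0.1 over all genes tested and a fold over 1.2 or under 0.8. This test took the place of the SAM test of the study's methods. The fits were tested on simulated data. The number of arrays limits the precision, and the intervals rest on the spread between rats.

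The genes named were all 10 members with every probe, the pathway genes with the 3 lowest unadjusted p per comparison (1 of them is not reported here), markers of other cell types, and the 5 most correlated genes of Igf1, Igf2, Igfbp2 and Igfbp5. Members and lists were chosen with earlier results of these data known. The marker lists cover choroid plexus, leptomeninges, ependyma, endothelium, mural cells, microglia, astrocytes, oligodendrocytes, striatal projection neurons and cortex. Alternatives were 75th percentile scaling, a normexp background with an offset of 50, the deposited table, other filters on dim probes, the mean of all probes or another probe, outlier spots kept, the replicate block, covariates for choroid plexus and leptomeninges, a limit of 0.05 on adjusted p, calls without a fold limit, fits restricted to the groups compared, and leaving out each array in turn. Promoter sequences are from RefSeq.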

Additional observations from a re-analysis of the deposited data

How the results depend on the processing

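In all 147 recounts of members called, over the 6 comparisons, the count stayed at 0. The higher Igf2 in HFS (0.29 to 1.24) and the lower Igfbp5 in DOPA (-1.09 to -0.55) kept their direction in all 23 alternatives tried for each. Several of these could not move either estimate, such as leaving out an array of a group not compared, the replicate block or the mean of all probes. Both genes had been picked on these arrays. The replicate numbers are slide numbers, and no pairing by slide was assumed in the main fit. Of 18 same-numbered pairs, 10 correlated above 0.1, the range being -0.29 to 0.48. Of 12 arrays, 5 were nearest to an array of their own number. With the replicate block, the HFS difference was 0.96 for Igf2 (SE 0.29) and 1.82 for Igfbp2 (SE 0.79), the DOPA difference of Igfbp5 was -0.89 (SE 0.26), and no member was called.

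Of 696 recomputed differences, 42 changed sign, and the cause was not tested. The 696 include fits that could not move the estimate. With the choroid plexus covariate these were, in HFS, Igf1 (-0.17), Igfbp1 (0.28) and Igfbp2 (-0.12), in DOPA, Igfbp2 (-0.30) and Igfbp3 (-0.02), and in DOPA/HFS, Igf2r (-0.02). With the other probe of Igf1 the difference was -0.01 in HFS and 0.04 in DOPA/HFS. Igfbp3 in DOPA was -0.01 with the normexp background and with the deposited table, and in DOPA/HFS 0.04 with the mean of all probes and 0.12 with its other probe. In DOPA/HFS the deposited table gave -0.13 for Igf1r, -0.09 for Igf2r and -0.01 for Igfbp1, and Igf2r was -0.01 with 75th percentile scaling, -0.07 with outlier spots kept and 0 with the leptomeninges covariate. The deposited table and kept outlier spots moved the median of all genes in DOPA/HFS to -0.12 and -0.14.

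When 1 array at a time was left out, the sign turned in HFS for Igf1 (-0.05 to 0.26), Igf2r (-0.34 to 0.11), Igfbp1 (-0.23 to 0) and Igfbp6 (-0.01 to 0.44). In DOPA it did so for Igf2 (-0.18 to 0.06), Igf1r (-0.12 to 0.20), Igf2r (-0.18 to 0.07), Igfbp1 (-0.28 to 0.02), Igfbp2 (-0.19 to 0.63) and Igfbp3 (-0.03 to 0.13). In DOPA/HFS it did so for Igf1 (-0.63 to 0.19), Igf1r (-0.12 to 0.20), Igf2r (-0.14 to 0.12), Igfbp1 (-0.03 to 0.41), Igfbp2 (-0.39 to 1.09), Igfbp3 (-0.12 to 0.04) and Igfbp5 (-0.20 to 0.10). The lower end for Igfbp2 in DOPA/HFS came without replicate 2 of that group, the array with the highest leptomeninges mean.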

Other observations

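The marker lists other than choroid plexus overlapped between treated groups and 6-OHDA in their mean log2 signal, with 3 exceptions. Mural cells were at 9.04 to 9.31 in HFS and 9.03 to 9.24 in DOPA/HFS against 9.32 to 9.58 in 6-OHDA, and microglia were at 10.59 to 10.65 in DOPA/HFS against 9.80 to 10.56 in 6-OHDA. Ependyma was at 7.20 to 9.15 in 6-OHDA, 8.72 to 9.31 in HFS, 7.46 to 8.20 in DOPA and 8.21 to 8.96 in DOPA/HFS. Microglia spanned 9.80 to 10.66 over all arrays, endothelium 7.05 to 7.69, astrocytes 11.38 to 11.64, oligodendrocytes 14.27 to 14.74 and the 1 cortex gene on the array 4.35 to 7.76.

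In the kinase branch of the pathway, Gsk3b was 9.61, 9.93 and 10.33 in the 6-OHDA group, 10.25, 10.63 and 10.56 in the HFS group and 10.47, 10.67 and 10.22 in the DOPA group, but 9.97, 9.77 and 9.63 with both treatments. Its interaction was -1.19 (SE 0.29, limma, unadjusted p = 0.00179, adjusted p = 1), with the lowest unadjusted p of the 43 pathway genes tested. That of Htra1 was -0.54 (SE 0.24). Both genes were lower with both treatments than the separate treatments would add up to, and neither passed after adjustment over all genes. The study lists Htra1 as raised by stimulation on these arrays, which favours a negative interaction. The values of both genes are given as a description. Of the 43 pathway genes tested, 16 had a positive and 27 a negative interaction. At an unadjusted p under 0.05 (limma), 0 were positive and 3 negative, Htra1 among them, beside 1.98% of all genes. Stc2 lay on the other side (0.60, SE 0.29).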
